A study of Homo sapiens with 6 samples.

Results

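The apolipoproteins described here are the products of 8 human genes, APOA1, APOA2, APOB, APOC1, APOC3, APOE, APOH and APOM, taken by symbol from the 38606 human genes of the count matrices. Their RNA was counted in single nuclei of teratomas, the mixed-tissue tumours that pluripotent cells form in a host animal. All tumours came from H1, a human embryonic stem cell line, whose cells were placed with matrigel under the flank skin of NSG mice, a strain without functional lymphocytes, and the tumours were snap frozen. The 6 libraries fall into 3 groups of 2. The DATG tumours carried the ΔATG form of the long non-coding RNA lncPRESS1, the KO tumours its knockout, and the WT tumours the unchanged gene. How the DATG and KO alleles were built, how many clones they came from and whether the 2 libraries of a group are separate tumours are not given in the labels, so p-values measure only the spread between these libraries. The question addressed is in which nuclei these genes were read, and whether their levels differed between the groups.

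Apolipoproteins are the protein coat of lipoprotein particles, which carry cholesterol and triglyceride in the blood. The liver and the absorptive lining of the gut secrete most of them, and in the embryo the yolk sac endoderm does so too. APOB is the fixed backbone of very-low-density and low-density lipoproteins and chylomicrons, APOA1 and APOA2 are the main proteins of high-density lipoprotein, and APOC1, APOC3 and APOE move between particles, while APOE, a ligand of the LDL receptor family, is also made by macrophages, glia and other cells.

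In GRCh38 with GENCODE 29, all 8 are protein-coding genes. APOA1 (ENSG00000118137) lies on the minus strand at chr11:116835751-116837950 and APOC3 (ENSG00000110245) on the plus strand at chr11:116829706-116833072, with 2678 bases between them. APOE (ENSG00000130203, chr19:44905754-44909393, plus) lies 4853 bases from APOC1 (ENSG00000130208, chr19:44914247-44919349, plus). APOA2 (ENSG00000158874) is at chr1:161222292-161223631 on the minus strand, APOB (ENSG00000084674) at chr2:21001429-21044073 on the minus strand, APOH (ENSG00000091583) at chr17:66212033-66256525 on the minus strand and APOM (ENSG00000204444) at chr6:31652416-31658210 on the plus strand. APOA1 overlaps its antisense gene APOA1-AS, and APOC1 has a pseudogene copy, APOC1P1, so that reads of those pairs may have been split by the counting.

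Promoters, taken as 250 bases before to 50 bases after the start site, were found for 5 of the 8 genes (APOA2, APOC1, APOE, APOH and APOM) in RefSeq on GRCh38.p14. They were searched on both strands for short motifs of liver and gut transcription factors. The FOXA motif TGTTTAC stood in 1 of these 5 genes, APOA2, against 3.42% of all 35116 promoters in the table, and the HNF1 core motif GTTAAT in 1 of 5, APOH, at 2 places, against 6.88% of all promoters. The HNF4 motif CAAAGTCCA (0.384% of all promoters), the nuclear receptor core motif AGGTCA (13.8%) and the TATA box TATAAA (11.5%) were in none of the 5. The pair that held a match is shown on the strand of the gene, 5′ to 3′, with the matches in capitals. The APOA2 window is chr1:161223579-161223878, minus strand, with the motif on the opposite strand and its first base 42 bases before the start. The APOH window is chr17:66229366-66229665, minus strand, with its matches 210 and 49 bases before the start. A match describes these letters and is not evidence of binding.
APOA2: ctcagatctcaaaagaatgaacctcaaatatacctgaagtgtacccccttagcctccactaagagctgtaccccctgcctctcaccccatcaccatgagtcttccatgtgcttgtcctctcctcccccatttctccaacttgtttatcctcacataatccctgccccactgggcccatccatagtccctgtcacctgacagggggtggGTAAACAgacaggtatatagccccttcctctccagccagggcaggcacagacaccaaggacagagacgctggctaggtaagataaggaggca
APOH: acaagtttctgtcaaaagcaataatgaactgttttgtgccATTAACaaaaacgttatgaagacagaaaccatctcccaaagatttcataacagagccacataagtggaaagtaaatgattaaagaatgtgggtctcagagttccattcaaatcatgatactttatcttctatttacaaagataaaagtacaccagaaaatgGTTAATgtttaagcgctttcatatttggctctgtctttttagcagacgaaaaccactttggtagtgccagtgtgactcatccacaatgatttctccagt

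The libraries held 5793 to 10931 human nuclei in the DATG group, 7440 to 9281 in KO and 5296 to 11053 in WT, with 21437691 to 33688006 human UMIs (unique molecular identifiers, 1 per captured RNA molecule) per library and medians of 2456 to 3907 UMIs per nucleus. LNCPRESS1, the targeted gene, had 1 and 3 UMIs in the DATG libraries, 3 and 0 in KO and 7 and 1 in WT, too few to check the labels. The correlation of log2 levels between the libraries of a group was 0.852 for DATG, 0.971 for KO and 0.959 for WT over 14900 genes. The DATG libraries thus stood further apart than the other pairs, and results that rest on them are given with and without DATG replicate 1 where that changes a call. Pairs of libraries shared 6 to 33 nucleus barcodes. Nuclei were clustered without any apolipoprotein gene, which gave 31 clusters. Cluster 30, with 136 nuclei, had 15 of 16 hepatocyte markers raised and AHSG, AFP and DPYS in the lead, and is called hepatocyte-like. Cluster 11, with 1635 nuclei led by SI and TMEM45B, had 9 of 14 gut epithelium markers raised, and 7 of 16 hepatocyte markers, and is called gut epithelium-like by the gut list. Cluster 14, with 1362 nuclei led by OOSP4B, PCAT14 and SYTL5, had all 10 general epithelium markers raised and also 8 of 16 hepatocyte markers, with SOX17 among its 10 leading genes, and is called by its number. In sums by class it is part of the general epithelium-like nuclei. It held 88 of 91 and 403 of 1058 of these in DATG, 144 of 147 and 83 of 97 in KO, and 240 of 246 and 404 of 513 in WT.

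With the 6 libraries summed, all 8 genes had their highest level in hepatocyte-like nuclei. By library this did not always hold, as APOE was higher in cluster 14 in both KO libraries. UMIs of the 8 genes were also counted outside the hepatocyte-like, gut epithelium-like and cluster 14 nuclei, to a share that differed between libraries. Of 5577 APOA1 UMIs, 14.3% (exact binomial 95% interval 13.4% to 15.3%) were in hepatocyte-like, 13.02% (12.1% to 13.9%) in gut epithelium-like and 18.1% (17.1% to 19.1%) in cluster 14 nuclei, which left 54.5% (53.2% to 55.9%) in all others. Of 4332 APOB UMIs, 27.6% were in hepatocyte-like, 31.9% in gut epithelium-like and 11.9% in cluster 14 nuclei. The share in all other nuclei was 28.7% for APOB, from 53.5% to 63.5% for APOC3, APOA1, APOA2, APOH and APOC1, 70.1% for APOE (of 6977 UMIs) and 74.2% for APOM (of 726 UMIs). These shares are of UMIs summed over the 6 libraries, which contributed unequally. By library, the share of APOA1 in all other nuclei was 33.4% and 19.2% in DATG, 61.9% and 55.5% in KO and 55.03% and 66.4% in WT, so that DATG was below KO and WT. For APOA2 it was 25.4% and 14.3% in DATG, 70.3% and 47.6% in KO and 54.1% and 70.8% in WT, with DATG again the lowest. For APOB it was 21.5% and 9.95% in DATG, 28.1% and 20.8% in KO and 35.2% and 38.4% in WT. APOE had 69.9% and 46.8% in DATG, 76.3% and 87.2% in KO and 60.9% and 75.1% in WT, and APOM 82.0% and 62.5% in DATG, 71.7% and 77.0% in KO and 78.2% and 69.7% in WT, so that the order of APOE and APOM changed between libraries. All such intervals cover counting error only.

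**Figure D1:**
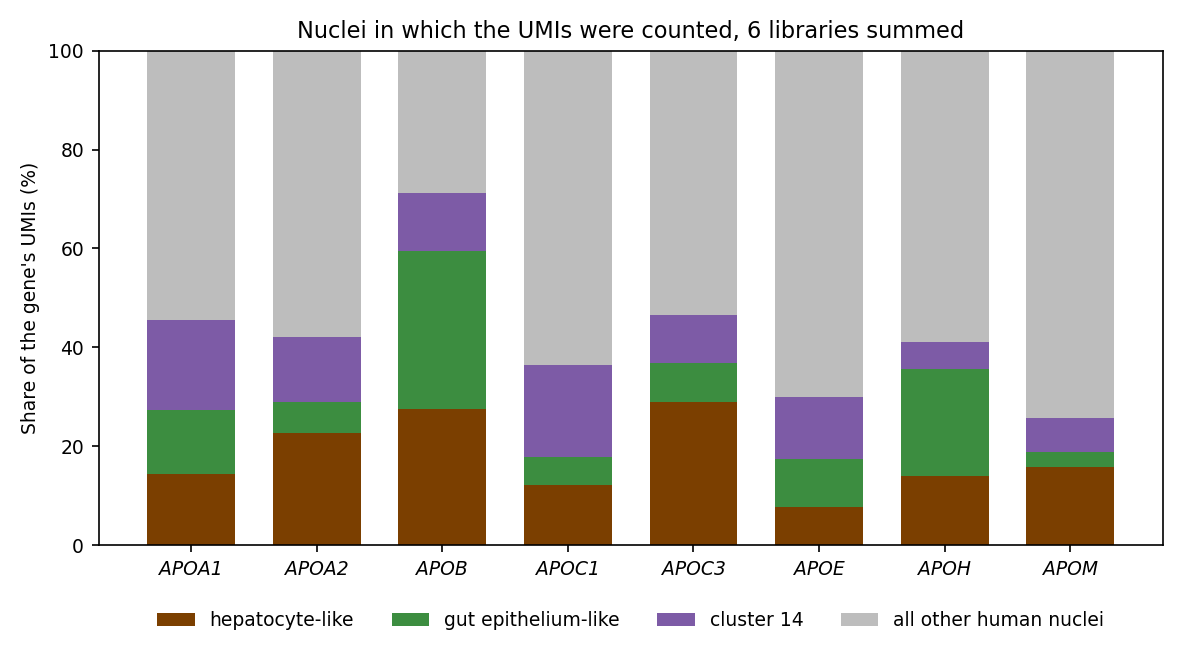
Share of each gene's UMIs (y axis, percent) counted in hepatocyte-like, gut epithelium-like, cluster 14 and all other human nuclei, with the 6 libraries summed. The grey part is lowest for APOB, at 28.7%, and highest for APOM, at 74.2%.

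Over all human nuclei, every one of the 8 genes had a lower group mean in DATG and in KO tumours than in WT tumours. Levels are UMIs per 1000000 human UMIs (CPM). APOA1 had 20.1 and 19.96 CPM in the DATG libraries, 14.5 and 10.1 CPM in KO and 52.1 and 66.6 CPM in WT. The WT libraries were both above the other 4, and the DATG pair above the KO pair. Its means were 20.03 ± 0.0929 CPM in DATG, 12.3 ± 3.12 in KO and 59.3 ± 10.2 in WT (SD, n = 2 each). In a fit of all 6 libraries, APOA1 had log2 fold changes of -2.25 (SE 0.28) in KO over WT, with an edgeR adjusted p of 0.851, and -1.42 (SE 0.27) in DATG over WT, with an edgeR adjusted p of 1. APOA2, APOA1's partner on high-density lipoprotein, had 10.1 and 2.61 CPM in DATG, 5.84 and 8.66 CPM in KO and 12.2 and 37.9 CPM in WT. The WT libraries were again the highest, but differed from each other more than WT replicate 1 differed from the others.

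APOB had 9.38 and 35.6 CPM in DATG, 8.54 and 13.6 CPM in KO and 44.5 and 37.6 CPM in WT. KO and WT did not overlap, and the DATG libraries lay apart, with replicate 2 just under WT. Its log2 fold changes were -1.85 (SE 0.68) in KO over WT and -0.67 (SE 0.66) in DATG over WT. APOE had 29.6 and 29.5 CPM in DATG, 29.1 and 17.9 CPM in KO and 47.0 and 77.0 CPM in WT, so that WT was above the other libraries, and its log2 fold changes were -1.39 (SE 0.34) in KO over WT and -0.92 (SE 0.34) in DATG over WT. APOC1, an inhibitor of cholesteryl ester transfer protein, had 3.27 and 4.39 CPM in DATG, 4.97 and 2.83 CPM in KO and 8.75 and 6.76 CPM in WT, again with WT the highest. APOC3, an inhibitor of lipoprotein lipase, had 2.05 and 0.466 CPM in DATG, 0.501 and 2.20 CPM in KO and 2.09 and 4.79 CPM in WT. For APOC3, KO and WT overlapped and DATG replicate 1 was only just under WT replicate 1. APOH, also called beta-2-glycoprotein I, a phospholipid-binding plasma protein, had 0.505 and 0.840 CPM in DATG, 0.367 and 0.932 CPM in KO and 1.29 and 4.38 CPM in WT, on 11 to 140 UMIs per library. APOM, a carrier of sphingosine 1-phosphate on high-density lipoprotein, had 2.97 and 1.12 CPM in DATG, 6.01 and 3.40 CPM in KO and 4.11 and 5.79 CPM in WT. APOM overlapped between KO and WT and was lowest in DATG.

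**Figure D2:**
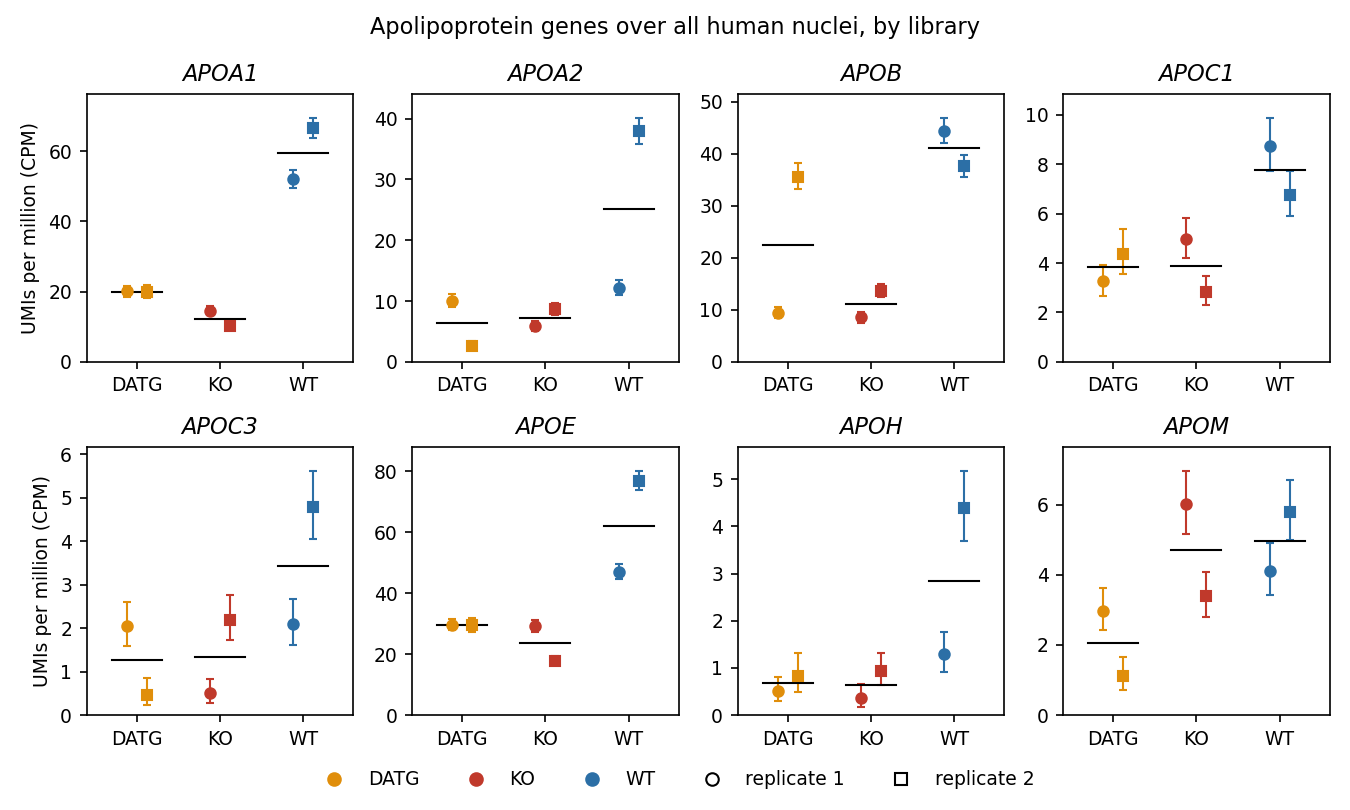
Level of each gene (y axis, UMIs per 1000000 human UMIs) summed over all human nuclei in the DATG, KO and WT libraries. Points are libraries with exact Poisson 95% intervals, and lines are group means. The WT libraries are above the 2 DATG libraries for all 8 genes, and above the 2 KO libraries for all but APOC3 and APOM.

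Counted over the 8 genes, both KO libraries were below both WT libraries for 6 (APOA1, APOA2, APOB, APOC1, APOE and APOH), where 23.7% of 27757 genes with at least 30 UMIs did so, and both DATG libraries were below both WT libraries for all 8, where 18.7% of genes did so. None of the 8 was higher in both libraries of KO (20.3% of genes) or of DATG (6.89%) than in both WT libraries. Between DATG and KO, APOA1 and APOE were higher in both DATG libraries (15.4% of genes) and APOM was lower in both (25.0% of genes). The median log2 fold change of the 8 was -1.58 in KO over WT, beside 0.01 over all 26333 genes tested, and -1.24 in DATG over WT, beside 0.02. These comparisons share the WT libraries, and APOA1 with APOC3 and APOE with APOC1 are neighbours on a chromosome. None of the 8 passed edgeR's quasi-likelihood test at an adjusted p under 0.05 in the fit of all 6 libraries, and neither did any other gene, so that 0% of 26333 genes was called in each of the comparisons KO with WT, DATG with WT and DATG with KO. At an unadjusted p under 0.05, the counts were 4 of 8 members and 1251 genes (4.75%) for KO with WT. They were 2 of 8 and 761 genes (2.89%) for DATG with WT, and 1 of 8 and 1458 genes (5.54%) for DATG with KO. APOM's small difference between KO and WT changed sign when 1 library was left out.

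The calls changed with the libraries included. The biological coefficient of variation was 38.7% in the fit of all 6 libraries and 24.2% in a fit of the KO and WT libraries alone. In the fit of KO and WT alone, edgeR called 423 of 25712 genes (1.65%), of which 333 (1.30%) were lower in KO, and 2 of the 8 members. These were APOA1 (log2 fold change -2.27, SE 0.25, edgeR adjusted p 0.0179) and APOB (-1.86, SE 0.31, edgeR adjusted p 0.0368), both lower in KO. DESeq2 on all 6 libraries called APOA1 alone of the 8 in KO over WT (adjusted p 7.02e-07, with 0.609% of genes called) and in DATG over WT (-1.41, adjusted p 0.0264, with 0.312% of genes called), and none of the 8 in DATG over KO, where it called 73 genes. With 1 KO or WT library left out of the 6, edgeR called no gene in KO over WT. Without DATG replicate 1, it called 2.11% of genes in KO over WT, again with APOA1 and APOB among them. Also without DATG replicate 1, edgeR called APOA1 in DATG over WT (-1.37, adjusted p 0.0343), where 7.61% of genes were called. In that fit APOB was higher (1.86, SE 0.34, edgeR adjusted p 0.00763) and APOM lower (-1.85, SE 0.53, edgeR adjusted p 0.0377) in DATG over KO, where 22.6% of genes were called, with 1 DATG library assumed to vary like the other groups. The higher APOB in DATG over KO rests on DATG replicate 2. For APOB, DATG replicate 1 lay between the KO libraries, and DATG replicate 2 above both. With 1 library left out, APOB's log2 fold change in DATG over KO ranged from -0.21 to 1.86, and so changed sign. In sums over all nuclei, fewer nuclei of a type and less RNA per nucleus cannot be told apart.

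Shares of the source nuclei differed between libraries. Gut epithelium-like nuclei were 0.576% and 9.77% of the DATG libraries, 0.0646% and 0.457% of KO and 4.93% and 6.38% of WT. DATG replicate 2 and the WT libraries held most of them, and the same 3 libraries had the highest APOB over all nuclei. Cluster 14 was 0.805% and 6.96% of DATG, 1.55% and 1.12% of KO and 4.53% and 3.66% of WT nuclei. Hepatocyte-like nuclei were rare in all groups, with 0.137% and 0.207% in DATG, 0.215% and 0.376% in KO and 0.378% and 0.371% in WT. Hepatocyte-like shares averaged 0.172% ± 0.0494 in DATG, 0.296% ± 0.114 in KO and 0.374% ± 0.00474 in WT (SD, n = 2 each). With 2 libraries against 2, the exact two-sided permutation test cannot give a p under 0.33, and no share passed. Over all nuclei, the 16 hepatocyte markers summed to 213 and 401 CPM in DATG, 90.3 and 158 CPM in KO and 351 and 572 CPM in WT, and both KO libraries were below both WT libraries for 10 of 16 and above for 2, and both DATG libraries below for 7. The 14 gut markers summed to 29.9 and 202 CPM in DATG, 20.9 and 31.7 CPM in KO and 218 and 147 CPM in WT, and both KO libraries were below both WT libraries for 13 of 14, both DATG libraries for 6. The part of these nuclei in the levels of the 8 genes over all nuclei was not tested.

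Within hepatocyte-like nuclei, KO levels were low for APOA1 and APOE and lay within the WT range for APOB. APOA1 had 1793 and 863 CPM in the DATG libraries, 280 and 220.0 CPM in KO and 1221 and 877 CPM in WT. The KO libraries were thus the lowest, below every DATG and WT library. APOE had 1176 and 400 CPM in DATG, 130 and 96.9 CPM in KO and 879 and 701 CPM in WT, with KO again below all other libraries. APOB had 1451 and 1389 CPM in DATG, 1043 and 1159 CPM in KO and 1398 and 888 CPM in WT. For APOB the KO libraries lay between the WT libraries. APOA2 had 1293 and 188 CPM in DATG, 280 and 436 CPM in KO and 433 and 605 CPM in WT, with overlap of KO and WT. APOM had 75.1 and 37.5 CPM in DATG, 300 and 63.4 CPM in KO and 105 and 99.6 CPM in WT, and APOC1 had 158 and 138 CPM in DATG, 54.5 and 85.7 CPM in KO and 210 and 76.6 CPM in WT. APOC3 ranged over the 6 libraries from 20.5 CPM in KO replicate 1 to 317 CPM in DATG replicate 1, and APOH from 8.34 CPM in DATG replicate 1 to 74.5 CPM in KO replicate 2, on 1 to 20 UMIs. For APOM, APOC1, APOC3 and APOH the KO and WT libraries overlapped. AFP, the fetal albumin-like protein that marks these nuclei, had 17942 and 8996 CPM in DATG, 4922 and 4815 CPM in KO and 4784 and 7177 CPM in WT, with both KO libraries inside the WT range. The other hepatocyte markers went different ways. In these nuclei both KO libraries were above both WT libraries for 7 of 16 markers, such as CPS1, an enzyme of the urea cycle, with 259 and 246 CPM in KO and 85.3 and 65.1 CPM in WT. Both KO libraries were below both WT libraries for 1 of 16, VTN, which encodes vitronectin, with 177 and 153 CPM in KO and 361 and 528 CPM in WT. Both DATG libraries were above both WT libraries for 9 markers and below for 1. CPS1 and VTN were picked as examples after their values were seen. Summed over the 16 markers, AFP included, the level was 26775 and 18468 CPM in DATG, 7384 and 9239 CPM in KO and 7422 and 10761 CPM in WT.

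The KO and WT hepatocyte-like sums were tested in a fit of those 4 libraries, chosen after seeing the data, since the DATG libraries held only 15 and 12 such nuclei. APOE fell in KO (log2 fold change -2.81, SE 0.38, edgeR adjusted p 0.0194), as 1 of 2 genes called among 5082 (0.0394%). APOA1 had a log2 fold change of -2.07 (SE 0.35) with an edgeR adjusted p of 0.0815, APOA2 -0.53 (SE 0.36), APOB -0.04 (SE 0.33) and APOM 0.75 (SE 0.61). APOH was not tested, being too low. With any 1 of the 4 libraries left out, the log2 fold changes were -2.27 to -1.82 for APOA1 and -2.98 to -2.59 for APOE. In those fits the lone library of a group is assumed to vary like the other group. They called more genes than the fit of 4 libraries, so a call there is no result about the members. The ratio of APOB to APOA1 UMIs was 0.809 and 1.61 in DATG, 3.73 and 5.27 in KO and 1.15 and 1.01 in WT, so KO stood above the other 4 libraries. These sums rest on 20 and 28 nuclei in KO and 20 and 41 in WT, and the single nucleus richest in APOE held 31.6% and 26.9% of its UMIs in KO and 35.8% and 29.0% in WT. Without that nucleus, APOE had 92.7 and 71.7 CPM in KO and 641 and 567 CPM in WT, and APOA1, treated alike, had 171 and 166 CPM in KO and 802 and 658 CPM in WT. The groups remained apart for APOA1 and APOE.

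Across the 136 hepatocyte-like nuclei, 132 had a UMI of at least 1 of the 8 genes. APOB was seen in 90.4% of them, APOA1 in 72.1%, APOA2 in 68.4%, APOE in 58.1%, APOM in 33.8%, APOC1 in 33.1%, APOC3 in 28.7% and APOH in 13.2%, shares that depend on gene length and on the nucleus's depth. APOE was seen in 69.4% of nuclei with APOA1 and in 28.9% of nuclei without it, and APOB in 93.9% and 81.6%. These shares pool the 6 libraries, so differences between groups and in depth enter them, and co-expression within nuclei was not tested. Thinned to 1000 UMIs per nucleus, APOA1 was seen in 29.4% of hepatocyte-like nuclei and in 2.19% of nuclei outside liver, gut and cluster 14. The share of hepatocyte-like nuclei with APOA1 at that depth was 60.0% and 25.0% in DATG, 25.0% and 14.3% in KO and 35.0% and 29.3% in WT.

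Cluster 14 carried the next highest levels of APOA1 and APOE after hepatocyte-like nuclei, with the 6 libraries summed. APOA1 had 527 and 168 CPM there in DATG, 186 and 191 CPM in KO and 226 and 182 CPM in WT, so KO overlapped WT. APOE had 198 and 145 CPM in DATG, 279 and 115 CPM in KO and 198 and 162 CPM in WT, and also overlapped. In both KO libraries APOE was thus higher in cluster 14 than in hepatocyte-like nuclei. APOB had 179 and 115 CPM in DATG, 44.6 and 72.8 CPM in KO and 125 and 113 CPM in WT, where KO was below the other libraries, and APOA2 had 321 and 12.9 CPM in DATG, 16.3 and 75.3 CPM in KO and 59.5 and 88.7 CPM in WT. In KO over WT, the log2 fold changes were -0.08 (SE 0.49) for APOA1, 0.19 (SE 0.42) for APOE and -1.01 (SE 0.36, edgeR adjusted p 1, unadjusted p 0.0235) for APOB. No gene passed edgeR's test there (0% of 12630 genes). At an unadjusted p under 0.05 there were 261 genes (2.07%) and 1 of the 7 members tested. The sign for APOA1 and for APOE in cluster 14 changed when 1 library was left out. A finer clustering divided cluster 14. A sub-cluster of 683 nuclei named general epithelium-like had 274 CPM of APOA1, 249 of APOE and 131 of APOB, one of 383 nuclei named gut epithelium-like had 194 CPM of APOA1, 114 of APOE and 165 of APOB, and an unnamed one, with 200 of its 400 nuclei from cluster 14, had 29.8 CPM of APOA1.

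In gut epithelium-like nuclei, APOB had 78.4 and 183 CPM in DATG, 67.2 and 116 CPM in KO and 295 and 146 CPM in WT, with DATG and WT overlapping and KO below WT. APOA1 had 286 and 42.8 CPM in DATG, 0 and 91.6 CPM in KO and 142 and 104 CPM in WT, and APOE 319 and 63.0 CPM in DATG, 0 and 24.4 CPM in KO and 104 and 91.9 CPM in WT. The KO values rest on 6 and 34 nuclei, and 0 UMIs of APOA1 in the first of these do not show that the gene was silent. APOC1, APOC3, APOH and APOM had 0 to 28 UMIs per library in these nuclei. Of the 5 libraries with at least 20 such nuclei, the gut epithelium-like level was above the barcodes with mostly mouse UMIs, the background defined with the outside nuclei, in 5 for APOA1 and APOB, 4 for APOE, 3 for APOA2 and APOH, 2 for APOC1, 1 for APOC3 and 0 for APOM. With so few KO nuclei no test was made.

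**Figure D3:**
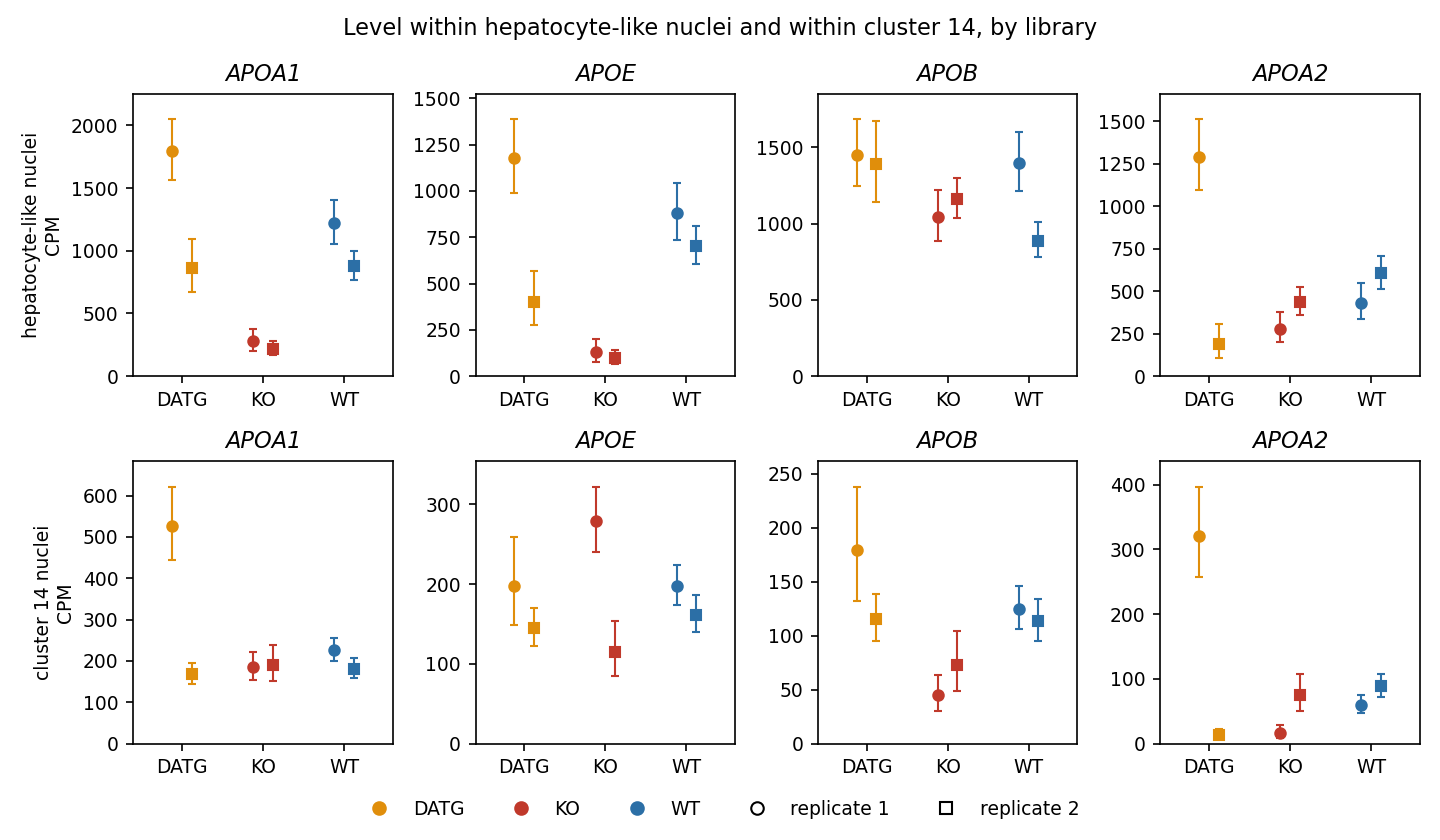
Level of APOA1, APOE, APOB and APOA2 (y axis, UMIs per 1000000 human UMIs) within hepatocyte-like nuclei (upper row) and cluster 14 nuclei (lower row) by library, with exact Poisson 95% intervals. In hepatocyte-like nuclei the KO libraries are lowest for APOA1 and APOE and among the others for APOB, while in cluster 14 KO and WT overlap for APOA1 and APOE.

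Summed over the nuclei outside liver, gut and cluster 14, the UMIs of 5 of the 8 members were not detectably more frequent than in mouse cells. For APOC1, APOC3 and APOH this rests on few UMIs. The tumours held mouse cells of the host, whose barcodes should carry no human transcripts of their own. Human UMIs there may be RNA free in the suspension or a human nucleus in the same droplet, which were not told apart. In human nuclei outside liver, gut and cluster 14, APOA1 had 21.0 and 17.0 UMIs per 1000 nuclei in DATG, 29.6 and 25.6 in KO and 181 and 143 in WT. Barcodes with under 40% human UMIs had 14.04 and 18.3 APOA1 UMIs per 1000 in DATG, 40.5 and 25.8 in KO and 157 and 156 in WT, and the Poisson intervals of the 2 kinds of barcode overlapped in all 6 libraries. The same held in all 6 libraries for APOA2, APOC1, APOC3 and APOH. In stricter mouse nuclei, with at most 10% human UMIs, APOA1 had 11.5 and 14.7 UMIs per 1000 in DATG, 41.9 and 31.0 in KO and 208 and 137 in WT, on 1 to 21 UMIs. WT was thus the highest in mouse barcodes as in human nuclei, and in these sums APOA1 did not stand above the background. By cluster, APOA1 was above the mouse barcodes in 1 library each in 4 of the 28 other clusters. These were clusters 13 and 29 in DATG replicate 1, with 46.5 and 83.3 UMIs per 1000 nuclei, and clusters 16 and 20 in WT replicate 1, with 423 and 310 per 1000. APOC1 was above in 1 library each in clusters 2, 27 and 28, and APOA2, APOC3 and APOH in none of the 28 clusters. Human UMIs made up 10.4% to 17.3% of UMIs in the mouse barcodes, whose median was 1488 to 2549 UMIs, beside 2456 to 3907 in human nuclei.

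In a fit of nuclei outside hepatocyte-like and gut epithelium-like clusters, which still holds cluster 14, APOA1 had log2 fold changes of -2.18 (SE 0.35) in KO over WT and -1.83 (SE 0.35) in DATG over WT, and APOB of -2.55 (SE 0.59) and -1.45 (SE 0.57). edgeR called 0% of 25898 genes in each of the 3 comparisons (1033 genes at an unadjusted p under 0.05 in KO with WT, 751 in DATG with WT and 1300 in DATG with KO). DESeq2 called APOA1 and APOB in KO over WT, with 0.415% of genes called, and APOA1 in DATG over WT, with 0.321% called. Without DATG replicate 1, edgeR called APOB in KO over WT (log2 fold change -2.57, SE 0.27, edgeR adjusted p 0.0384, 0.0481% of genes), APOA1 in DATG over WT (log2 fold change -1.65, SE 0.37, edgeR adjusted p 0.0379, 6.89% of genes) and APOB in DATG over KO (1.72, SE 0.31, edgeR adjusted p 0.00877, 19.2% of genes), where the lone DATG library is assumed to vary like the other groups. With cluster 14 also left out, an alternative chosen after seeing the data, the log2 fold changes of APOA1 were -2.46 (SE 0.38) in KO over WT and -2.72 (SE 0.39) in DATG over WT, and its change in DATG over KO turned to -0.25 (SE 0.37), against 0.35 with cluster 14 kept. The median of the 8 in DATG over WT was then -2.48, against -1.64 with cluster 14 kept, and edgeR called 0 of 25704 genes in each comparison, with 997 at an unadjusted p under 0.05 in KO over WT, 764 in DATG over WT and 1319 in DATG over KO. In erythroid-like nuclei (cluster 5, led by the embryonic and fetal globins HBE1 and HBG2, with 6 of 10 erythroid but also 11 of 14 neural progenitor markers raised), APOA1 was called in KO over WT (log2 fold change -2.87, SE 0.42, edgeR adjusted p 0.0244), as 1 of 4 genes among 10759 (0.0372%). It had 18.9 and 14.8 CPM in DATG, 14.2 and 18.6 CPM in KO and 153 and 88.5 CPM in WT. Per 1000 barcodes, those nuclei had 26.7 and 22.5 APOA1 UMIs in DATG, 23.7 and 31.6 in KO and 168 and 131 in WT, beside 14.04 and 18.3 in the mouse barcodes of DATG, 40.5 and 25.8 of KO and 157 and 156 of WT. The call was lost without KO replicate 1 (edgeR adjusted p 0.357) and without WT replicate 1 (0.189).

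**Figure D4:**
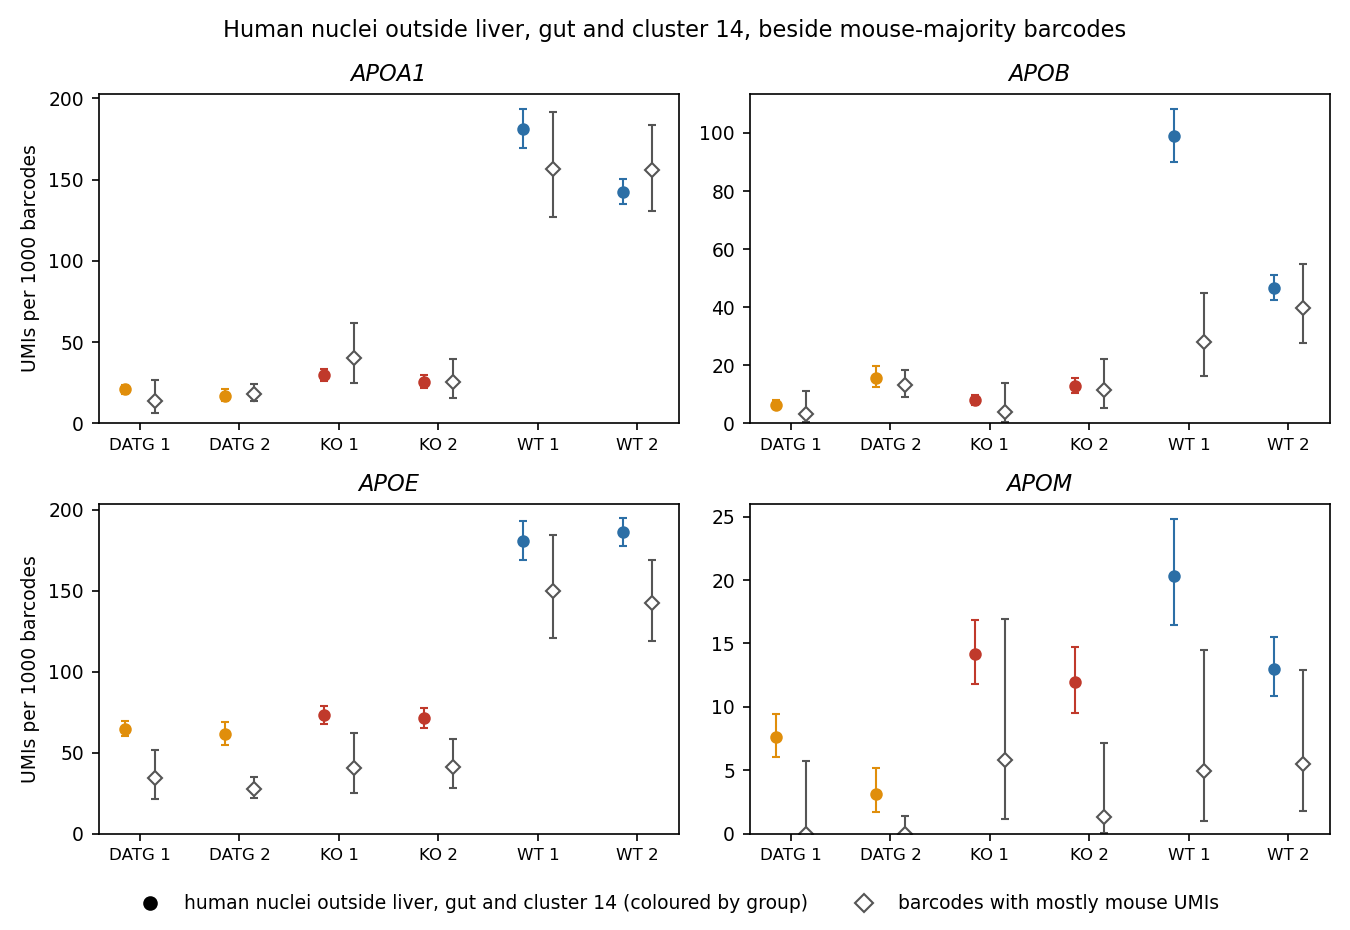
UMIs per 1000 barcodes (y axis) of APOA1, APOB, APOE and APOM in human nuclei outside liver, gut and cluster 14 (filled) and in barcodes with mostly mouse UMIs (open) of each library, with exact Poisson 95% intervals. The pairs overlap in all 6 libraries for APOA1, while APOB stands above in WT replicate 1, APOE in 5 libraries and APOM in 4.

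Summed over the nuclei outside liver, gut and cluster 14, APOE, APOM and, in 1 library, APOB were above that background. APOE had 64.8 and 61.5 UMIs per 1000 nuclei outside liver, gut and cluster 14 in DATG, 73.1 and 71.1 in KO and 181 and 186 in WT, beside 34.3 and 27.7 in the mouse barcodes of DATG, 40.5 and 41.2 of KO and 150 and 142 of WT. It was above in 5 of 6 libraries, with overlapping intervals in WT replicate 1. Mouse barcodes with a UMI of Apoe, the mouse counterpart, had 78.2 and 102 CPM of human APOE in DATG, 218 and 205 CPM in KO and 320 and 538 CPM in WT, and those without it had 103 and 80.3 CPM in DATG, 133 and 117 CPM in KO and 301 and 515 CPM in WT. Human APOE was thus higher beside mouse Apoe in 5 of 6 libraries, on 7 to 83 UMIs, and reads of the mouse gene assigned to the human one were not tested for. APOE was above the mouse barcodes in at least 2 libraries in 9 of the 28 clusters other than hepatocyte-like, gut epithelium-like and cluster 14. APOE did so in clusters 1, 2, 5, 15, 19, 21, 22, 27 and 28, of which 2, 22, 27 and 28 are given next. In pluripotent-like nuclei (cluster 27, led by ESRG and POU5F1) it had 430 UMIs per 1000 in DATG replicate 2, 438 in KO replicate 1 and 667 and 235 in WT, with no such nuclei in DATG replicate 1 and 2 in KO replicate 2. In pigment cells (cluster 22, led by TRPM1, DCT and TYR, with 7 of 9 melanocyte and 8 of 9 retinal pigment epithelium markers raised) it had 129 per 1000 in DATG replicate 2, 234 and 206 in KO and 252 and 212 in WT, where KO and WT overlapped. In macrophage or blood-like nuclei (cluster 28, led by F13A1 and CD163) it had 185 and 23.5 per 1000 in DATG, 219 in KO replicate 2 and 238 in WT replicate 2, leaving out libraries with under 20 such nuclei. It was above the mouse barcodes in 2 of those 4 libraries, and in DATG replicate 2 it was not, at 23.5 beside 27.7. Cluster 2, unnamed and led by CDKN2B and COMP, had 254 and 71.8 per 1000 in DATG, 326 and 183 in KO and 214 and 320 in WT, and was above the mouse barcodes in 5 of 6 libraries.

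APOM had 7.62 and 3.12 UMIs per 1000 nuclei outside liver, gut and cluster 14 in DATG, 14.2 and 11.9 in KO and 20.3 and 13.03 in WT, beside 0 and 0 in the mouse barcodes of DATG, 5.79 and 1.29 of KO and 4.95 and 5.52 of WT. It was above in 4 libraries, with overlap in KO replicate 1 and WT replicate 2. Clusters 16 and 18, unnamed and led by SLC6A5 and PAX8 and by HES6 and NEUROD4, were above in 2 libraries each, with 47.5 and 31.8 APOM UMIs per 1000 nuclei of cluster 18 in KO. Summed over the same nuclei, APOB was above the mouse barcodes in WT replicate 1 alone, at 98.8 per 1000 nuclei beside 28.1. There 254 of its 472 UMIs outside lay in the 390 nuclei of cluster 20, an unnamed cluster led by RBPJL, UGT2B7 and GP2, which had 651 APOB UMIs per 1000. In the other WT library, cluster 20 had 63.9 APOB UMIs per 1000 in 313 nuclei, and in KO replicate 2 it had 225 in 40 nuclei. The APOB level of cluster 20 was thus far higher in 1 WT library than in the other. By cluster, APOB was above the mouse barcodes in 2 libraries in cluster 20 and in 1 library in cluster 26.

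**Figure D5:**
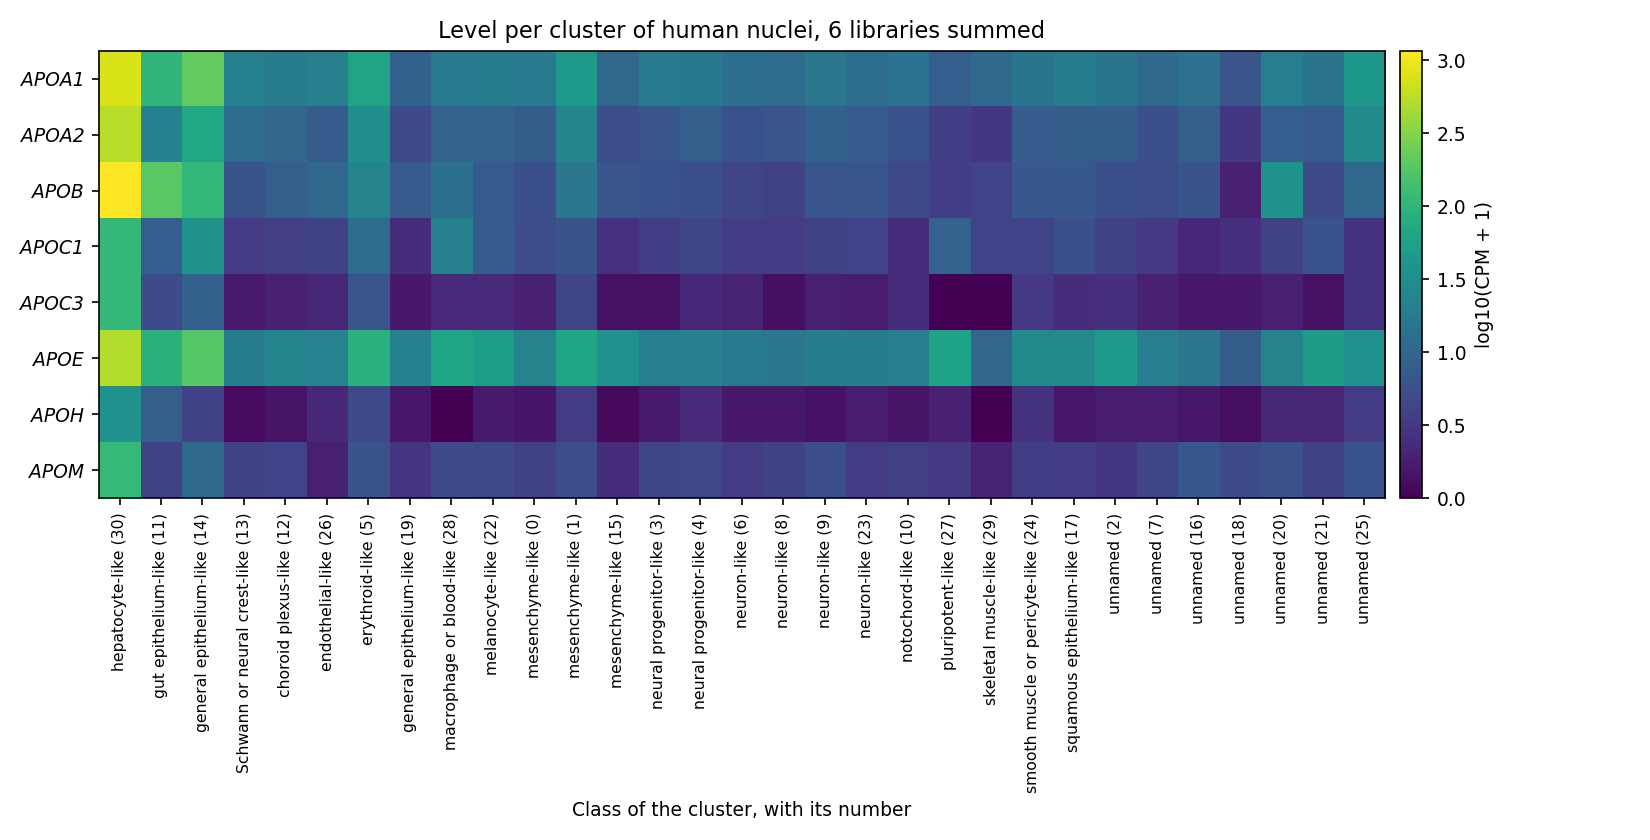
Level of the 8 genes (rows) in the 31 clusters (columns, with their numbers) over the 6 libraries summed, as log10(CPM + 1). Each of the 8 genes is highest in hepatocyte-like nuclei, cluster 30.

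The genes with the most similar levels to each member were sought over 89 sums of a class in a library, from 17 classes and 13421 genes, as a description without a test, since the sums share libraries and free RNA. AFP or AHSG, both liver secretory genes, came first for 6 of the 8. APOA1 was most like AFP (Pearson r 0.84), FGB (0.83) and APOE (0.80), and APOB most like AFP (0.89), FGB (0.88) and MEP1A (0.84), a metalloprotease of the gut brush border. APOA2 and APOC3 were each most like AHSG (0.88), which encodes fetuin-A, and APOH and APOM were also closest to AHSG, at 0.82 and 0.77. APOE was most like APOA1 (0.80), APOC1 (0.80) and AFP (0.75), and APOC1 most like APOE.

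The other 93 genes of lipoprotein metabolism considered were counted in 6 lists. In the fit of all 6 libraries edgeR called none of them in any comparison. In the fit of the KO and WT libraries, where 1.65% of genes were called, 0 list genes were called higher in KO and the following were called lower. Of 15 tested genes for assembly and secretion, 3 fell, namely A1CF, MTTP and SOAT2, and of 25 transcription factors 6 fell, among them HNF4A and NR5A2. Of 15 other apolipoproteins, 2 fell (APOA4 and APOL3), of 11 receptors 1 (AMN), of 8 transporters 1 (NPC1L1) and of 11 lipases and transfer proteins 0. MTTP, which loads lipid onto APOB, had 5.49 and 26.2 CPM in DATG, 6.17 and 4.51 CPM in KO and 36.4 and 25.4 CPM in WT. HNF4A, a nuclear receptor that drives liver and gut genes, had 5.79 and 65.0 CPM in DATG, 6.27 and 8.39 CPM in KO and 57.8 and 49.8 CPM in WT (log2 fold change -2.85 in KO over WT, SE 0.27, edgeR adjusted p 0.0140). For MTTP and HNF4A, DATG replicate 2 stood with WT and DATG replicate 1 with KO, as for APOB. APOA4, an apolipoprotein of chylomicrons, had 1.37 and 0.373 CPM in DATG, 0.834 and 1.62 CPM in KO and 7.92 and 9.14 CPM in WT. Its DATG libraries thus overlapped KO and were below WT. For APOA1 both DATG libraries were also below WT, but above KO. The list medians of the log2 fold change in KO over WT were -1.21 for assembly and secretion, -0.85 for transcription factors and -0.45 for lipases, beside 0.01 for all genes, in the fit of all 6 libraries. Receptors were at -0.37, transporters at -0.21 and other apolipoproteins at -0.15.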

How the data were processed

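Nuclei of frozen tumours were profiled with the 10x 3′ v3.1 kit, per the labels' protocols. The authors deposited raw UMI counts per gene and barcode on a joint human and mouse reference, made with Cell Ranger, version 8.0.1 per the submitters' processing notes and 8.0.0 per the file headers. The notes name the builds GRCh38 and GRCm38, while mouse features carry a GRCm39 prefix, with settings for introns and strand not given in the sources used here. Members, marker lists and pathway lists were chosen with earlier results of these data known.

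Human nuclei had at least 500 UMIs, 300 genes and 90% human UMIs, and simulated-doublet calls were removed (4.44% to 9.80% per library). Clusters came from 2000 variable genes, 30 components and Leiden clustering (leidenalg 0.10.2, scikit-learn 1.9.0, Python 3.11.15), without apolipoprotein and mitochondrial genes. A cluster was named from a list with at least 3 raised markers, taking the list with the largest raised part. A list was passed over where another had more of the 10 leading genes. It was also passed over in a shallow cluster led by none of its genes. Counts were summed per library and set and tested with edgeR 4.0.16 (R 4.3.3) quasi-likelihood fits with TMM scaling, low-count filtering and Benjamini-Hochberg adjustment over all genes tested. The code was checked on simulated data in which every gene had the same spread, which does not measure error rates in these libraries. Levels carry exact Poisson 95% intervals. Free RNA was judged in barcodes with under 40% human UMIs, a limit chosen after seeing the data. All 8 members are named, with up to 3 genes per pathway list by smallest p and the 3 genes most alike each member. Alternatives were DESeq2 1.42.0, its size factors, no filter, the libraries of 2 groups only, a replicate block, each library left out, doublets kept, 1000 UMIs per nucleus, unnamed clusters left out and finer clustering. A gene that this rule names is not reported here.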

Additional observations from a re-analysis of the deposited data

How the results depend on the processing

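In sums over all nuclei, edgeR called 0 genes in each comparison with all 6 libraries. With 1 library left out it called 0 to 576 genes and 0 to 2 members in KO over WT, 0 to 2079 and 0 to 1 in DATG over WT, and 0 to 6175 and 0 to 2 in DATG over KO. The 2-group fit called 423 genes (1.65% of those tested) and 2 members in KO over WT. DESeq2 called 158 genes (0.609%) and 1 member in KO over WT, 83 (0.312%) and 1 in DATG over WT, and 73 genes in DATG over KO. Outside liver and gut, the counts with 1 library left out were 0 to 15 genes and 0 to 1 member in KO over WT, 0 to 1864 and 0 to 1 in DATG over WT, and 0 to 5184 and 0 to 1 in DATG over KO. The 2-group fit called 5 genes there in KO over WT. DESeq2 called 113 genes (0.415%) and 2 members in KO over WT, 83 (0.321%) and 1 in DATG over WT, and 49 genes in DATG over KO. The cause of these changes was not tested. With 1 library left out, the largest counts over all nuclei came from the fit without DATG replicate 1. Outside liver and gut, the largest counts in DATG over WT and in DATG over KO came from that fit too. The shares of genes called without DATG replicate 1 are given in the Results. A member call in a fit that calls many genes is no result about the members. Where counts are summed over classes, the genes tested differ between classes and no share of genes is given.

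Summed over the named classes, 6 genes and 1 member were called in KO over WT, 2 to 133 and 0 to 2 with 1 library left out, and 51 and 2 in the 2-group fit. In DATG over WT the counts were 3 and 0, then 9 to 1347 and 0 to 3, and 7 and 2. In DATG over KO they were 2 genes, then 2 to 4155, and 1. In hepatocyte-like nuclei the 2 genes and 1 member called in KO over WT became 55 to 135 and 2 with 1 library left out.

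Replicate numbers are shared between groups, but with 2 pairs they were not shown to pair the libraries (correlation of deviations 0.135 for KO with WT, -0.123 for DATG with WT, 0.479 for DATG with KO). A replicate block called 0 genes over all nuclei in each comparison. Within classes the block called 5 genes and 1 member in DATG over WT and 1 gene in DATG over KO, and APOA1 in general epithelium-like nuclei moved to 0.040 in KO over WT. The crossed block, added after seeing the data, called 2 genes outside liver and gut in DATG over WT.

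General epithelium-like nuclei include cluster 14, so the values for these sets are not independent. With 1 library left out, these log2 fold changes changed sign. In KO over WT, APOA1 ranged from -0.32 to 0.32 in general epithelium-like nuclei (-0.03 with all libraries) and from -0.24 to 0.074 in cluster 14, and APOE from -0.62 to 0.66 in cluster 14. In hepatocyte-like nuclei APOB ranged from -0.32 to 0.31, APOC3 from -2.07 to 0.27 and APOM from -0.65 to 1.55. APOM ranged from -0.46 to 0.24 over all nuclei and from -0.49 to 0.059 outside liver and gut. In DATG over WT, APOA1 ranged from -1.70 to 1.42 in general epithelium-like nuclei and from -0.20 to 1.38 in cluster 14, and APOE from -0.23 to 0.15 in cluster 14. In DATG over KO, APOB ranged from -0.21 to 1.86 over all nuclei.

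The share of member UMIs in hepatocyte-like and gut epithelium-like nuclei was 30.3%, 31.8% with finer clustering and 32.3% at 1000 UMIs or more. The share of nuclei with APOA1 was 29.4% in hepatocyte-like nuclei thinned to 1000 UMIs, 40.9% thinned to 2000 and 72.1% unthinned, and 2.19%, 3.22% and 5.81% outside liver, gut and cluster 14. Hepatocyte-like nuclei numbered 12 to 41 per library, and their DATG sums, and APOH, were not tested.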
